A study of Mus musculus with 2 samples.

Results

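Cells that held transcripts of both *Gata2* and *Sox10* were followed in 2 single-cell RNA libraries of the boundary cap lineage of the mouse embryo, 1 for each of the embryonic days E11.5 and E12.5. The members were selected on their UMIs (unique molecular identifiers, each standing for 1 captured transcript): at least 1 of *Gata2* and at least 1 of *Sox10*, in a barcode with at most 10% mitochondrial UMIs and at least 2000 UMIs in all at E11.5 or 1000 at E12.5. By that rule the E11.5 library held 18 members among 840 filtered cells and the E12.5 library 113 among 3563, 131 of 4403 together. They were described against Sox10-positive cells of the same library with no *Gata2* UMI, 5 of nearest total UMIs for each member, which gave 90 comparators at E11.5 and 565 at E12.5.

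Both libraries came from embryos carrying an *Egr2*-driven Cre (Egr2Cre/+) and a Rosa26 Tomato reporter. The tissue taken was the spinal roots, the sensory ganglia beside them and the meninges, and its cells were sorted for Tomato. Such a sort takes in cells that expressed *Egr2* at some time and their descendants, so a Tomato-positive cell need not be a boundary cap cell on the day of collection. Embryos of 1 litter were pooled for each stage, both stages share the genotype, and no library without the Cre was used here. The E11.5 library held 10287595 UMIs over 1431 barcodes and the E12.5 library 23460243 UMIs over 3762 barcodes, and 9 barcodes occurred in both. With 1 library per stage there was no replicate and no test. Ratios are of CPM (counts per 1000000: UMIs of a gene summed over a group of cells, per 1000000 UMIs of that group), and each bracket gives a 95% interval that covers counting error only.

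GATA2 is a zinc-finger transcription factor of blood and endothelial precursors, mast cells, some spinal interneurons and, with GATA3, sympathetic neuroblasts. SOX10 is the transcription factor that marks migrating neural crest cells and peripheral glia. Boundary cap cells sit at the entry and exit points of the spinal roots, express *Egr2* (a zinc-finger factor of Schwann cell myelination) and *Prss56* (a secreted serine protease), and give rise to Schwann cells, satellite glia and some sensory neurons. *Gata2* lies on chromosome 6 at 88170559 to 88184018 (plus strand) and *Sox10* on chromosome 15 at 79039108 to 79049469 (minus strand) of GRCm39. Both are protein-coding.

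*Gata2* was a low transcript in every member. At E11.5, 15 members held 1 *Gata2* UMI, 1 held 2 and 2 held 3. At E12.5, 92 members held 1 UMI, 17 held 2, 3 held 3 and 1 held 4. Most members therefore stood just inside the rule, and a Sox10-positive cell with no *Gata2* UMI cannot be taken as a cell without the transcript. The median total of a member was 14143 UMIs (E11.5) and 7068 (E12.5), beside 14177 and 7064 in the comparators. *Sox10* itself, which the rule also used, stood at 325 CPM in the members and 318 in the comparators at E11.5 and at 385 and 327 at E12.5. Outside the filter on cells, 1 further barcode in each library held both genes, with 10.4% and 13.3% mitochondrial UMIs.

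*Gata2* was found mainly in Sox10-positive cells. At E11.5, 18 of 522 Sox10-positive cells (3.45%, 2.06–5.40) had a *Gata2* UMI and 0 of 318 Sox10-negative cells did, which allows a share of cells with a UMI of up to 0.943%. At E12.5, 113 of 1548 Sox10-positive cells (7.30%, 6.05–8.71) had one, against 18 of 2015 Sox10-negative cells (0.893%, 0.530–1.41). The median total of a Sox10-negative cell was 9903 UMIs (E11.5) and 6039 (E12.5), beside 12547 and 6330 in the Sox10-positive cells. Among Sox10-negative cells with *Isl1*, a homeobox gene of sensory and autonomic neurons, 0 of 204 in the E11.5 library and 4 of 1355 in the E12.5 library (0.295%, 0.0805–0.754) had a *Gata2* UMI.

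The stages differ in depth, so the shares were also taken after thinning each cell to 2000 UMIs. Only *Gata2* was counted in the thinned cells. Sox10-positive cells were chosen before thinning, so which cells were counted still depends on depth. The thinned share of Sox10-positive cells was 4 of 522 (0.766%, 0.209–1.95) in the E11.5 library and 37 of 1504 (2.46%, 1.74–3.38) in the E12.5 library, where 44 shallower cells were left out. As summed CPM over all Sox10-positive cells, *Gata2* stood at 3.55 (2.25–5.32) in the former library and 13.1 (11.005–15.5) in the latter. The value was higher at E12.5 on both scales, between libraries that differ in litter as well as in day. At E12.5 the unthinned share was 3.78% (9 of 238) of Sox10-positive cells under 4000 UMIs, 9.73% (33 of 339) of those with 8000 to 12000 and 8.18% (9 of 110, 3.81–15.0) of those above, whose interval overlapped that of the range before it (6.80–13.4). At E11.5 it was 4.63% (13 of 281) of the cells above 12000 UMIs and 2.48% (3 of 121) of those with 8000 to 12000. In the Sox10-negative cells of E12.5 it was 0.845%, 0.792% and 0 of 65 over the 3 ranges.

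The members were spread over several clusters of Sox10-positive cells, and the limits of the clusters without a member overlapped their shares. Cells were clustered on expression in each library, leaving out *Gata2*, *Sox10* and the genes of the sensory neurogenic and autonomic lists. A cluster is called here by its number and leading genes. At E11.5, 10 members fell in cluster 8, led by *Gfra3* and *Dlx1* (7.58% of its 132 Sox10-positive cells, 3.69–13.5). Another 5 fell in cluster 4, led by *Lin7a*, *Cbln1* and *Ephb1* (4.59% of 109), 2 in cluster 2 and 1 in cluster 3. None of the 52 Sox10-positive cells of cluster 7, which was led by *Plcb1* and the Notch ligand gene *Dll1*, had a *Gata2* UMI, which allows up to 5.77%. The 55 of cluster 9, where cells were shallow (2840 UMIs at the median), held none either, which allows up to 5.45%.

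At E12.5, 112 of 113 members fell in 6 clusters. Cluster 6, led by *Col22a1*, *Sfrp5* and *Fhl1* with *Fabp7* and the Notch target *Hes5* among its leading genes, held 32 members (10.8% of its Sox10-positive cells, 7.51–14.9). Cluster 4, with *Sox8*, *Dlx2* and *Prss56* among its leading genes, held 26 (8.02%, 5.31–11.54). Cluster 15, which combined *Zpld1* with the mitotic genes *Aurkb* and *Kif2c*, held 18 (8.65%, 5.21–13.3). Cluster 8, led by *Mybpc1* and *Cntn3*, held 16 (11.3%, 6.58–17.7), cluster 5, with *Dkk2*, *Mal* and *Gfra3*, held 11 (6.15%, 3.11–10.7), and cluster 7, with *Hes5* and *Hey1*, held 9 (5.17%, 2.39–9.59). The intervals of these 6 clusters overlapped, so no order among them is read. The 50 Sox10-positive cells of cluster 11, led by *Plcb1* and *Dll1* and holding the neurogenic factor gene *Neurog1*, included no member, and the 30 and 32 Sox10-positive cells of clusters 12 and 13 included none either. These zeros allow shares of up to 6%, 10% and 9.38%, within the range of the clusters that held members.

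**Figure D1:**
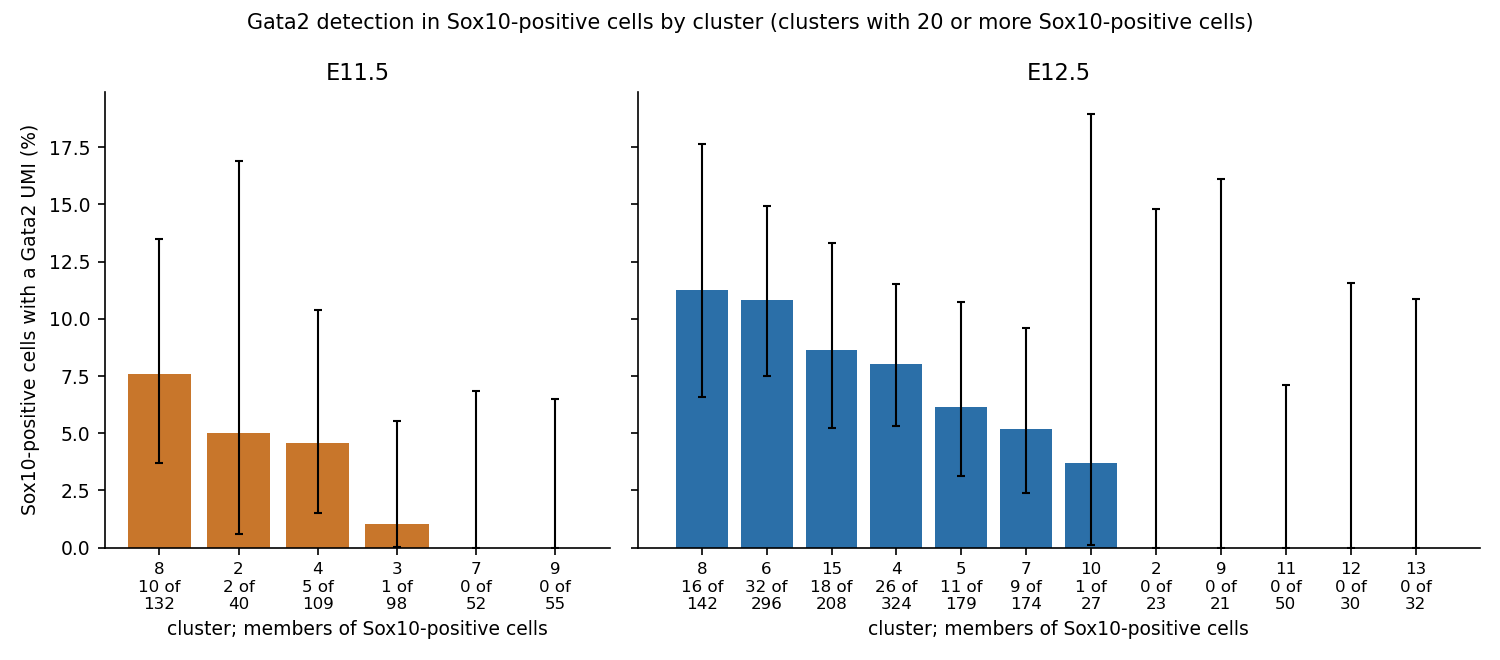
Share of Sox10-positive cells with a *Gata2* UMI (percent, bars) in each cluster with 20 or more Sox10-positive cells, at E11.5 (left) and E12.5 (right), with 95% exact binomial intervals as lines and the members and Sox10-positive cells under each bar. The 6 clusters of E12.5 with the most members stand between 5.17% and 11.3%, while clusters 2, 9, 11, 12 and 13 are at 0.

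The name Gata2-positive glia rests in part on the rule, since members and comparators were both selected on *Sox10*. Glial and neural crest genes were found in both groups. The 19 genes of that list were together at ratios of 1.08 (1.01–1.15) at E11.5 and 1.18 (1.15–1.21) at E12.5. Within clusters, against cells of the members' own cluster, the list was at 0.95 (0.89–1.01) and 1.04 (1.02–1.07). *Fabp7*, a fatty acid binding protein gene of glial progenitors and the most abundant gene of the glial and neural crest list, stood at 1533 CPM in members and 1585 in comparators at E11.5 and at 4149 and 3306 at E12.5. *Erbb3*, the neuregulin receptor of Schwann cell precursors, had a UMI in 72.2% and 56.6% of members, at 112 and 127 CPM against 88.3 and 96.1 in the comparators, ratios of 1.27 (0.81–1.94) and 1.32 (1.06–1.63). *Ednrb*, an endothelin receptor of neural crest cells, had one in 94.4% and 96.5%, at ratios of 1.17 (0.94–1.46) and 1.06 (0.97–1.16). Within clusters *Fabp7* was at 0.91 (0.82–1.02) and 1.10 (1.06–1.14). *Erbb3* was there at 0.88 (0.57–1.32) and 1.08 (0.87–1.33), and *Ednrb* at 1.03 (0.83–1.28) and 0.96 (0.88–1.04).

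Against the comparators, 150 of the 2403 genes with at least 100 UMIs over both groups were 1.5-fold or more higher in the members at E11.5 (6.24%) and 142 were lower by as much (5.91%). At E12.5, 187 of 6744 genes were higher (2.77%) and 366 lower (5.43%). The median log2 ratio over all genes was 0.02 and 0.01. Many of these genes were near the minimum of 100 UMIs: the interval of the ratio lay above 1 for 129 and 171 of the higher genes and below 1 for 86 and 246 of the lower genes. With edgeR's TMM scaling, which moved every log2 ratio by -0.13 (E11.5) and -0.06 (E12.5), the split was 77 higher and 231 lower at E11.5 and 137 higher and 458 lower at E12.5.

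**Figure D2:**
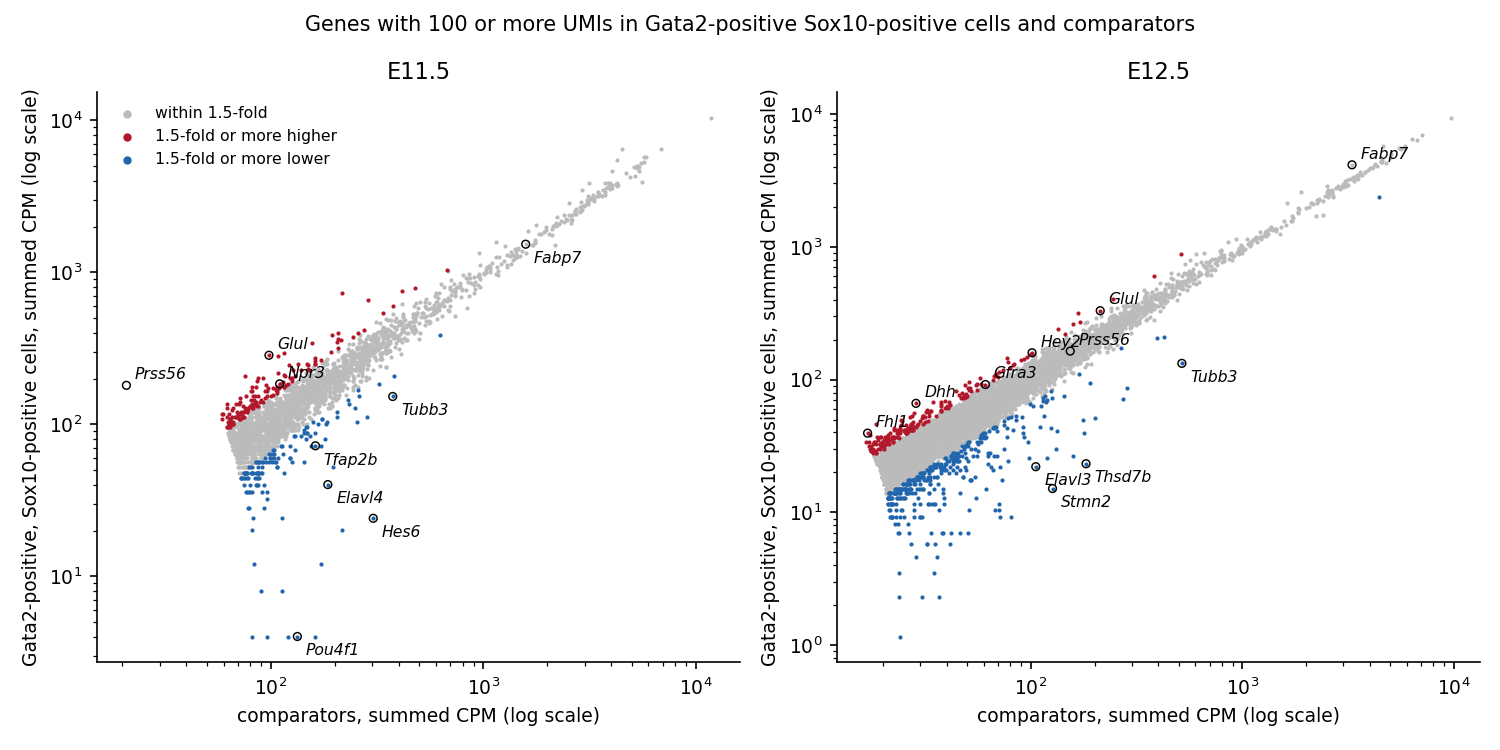
Summed CPM of each gene with 100 or more UMIs in the members (vertical, log scale) against the comparators (horizontal, log scale), at E11.5 (left, 18 against 90 cells) and E12.5 (right, 113 against 565 cells), coloured by the 1.5-fold limits, with genes at 0 in the members left out and *Prss56* added at E11.5, where it has 71 UMIs. Neuronal genes (*Tubb3*, *Stmn2*, *Elavl3*) lie below the diagonal at E12.5, and *Prss56* at E11.5 (181 against 20.9 CPM) lies far above it.

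Of the 24 gene lists, the pan-neuronal and sensory neurogenic ones had the most genes lower in the members. Of the 14 pan-neuronal genes, 11 passed the minimum at E12.5 and 10 of them were 1.5-fold or more lower, with a median log2 ratio of -1.97 beside 0.01 over all genes. Their sum was 502 CPM in the members and 1498 in the comparators, a ratio of 0.33 (0.30–0.37). The gene not lower was *Gap43*, a growth cone protein gene, at 177 and 172 CPM. *Stmn2*, a microtubule regulator gene of growing axons, stood at 15.1 CPM in members and 127 in comparators (0.12, 0.063–0.21), and *Tubb3*, the neuronal beta-tubulin gene, at 133 and 518 (0.26, 0.21–0.31). The RNA-binding protein genes *Elavl3* and *Elavl4* were at 0.21 (0.13–0.33) and 0.26 (0.18–0.35) of the comparators.

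At E11.5, 4 pan-neuronal genes passed the minimum, of which *Tubb3* (153 against 375 CPM), *Elavl3* and *Elavl4* were lower and *Gap43* was higher (201 against 123 CPM). Their list summed to 690 CPM in members and 904 in comparators (0.76, 0.65–0.90). One E11.5 member held 90 of the 172 pan-neuronal UMIs, and without it the ratio was 0.40 (0.31–0.50). One E12.5 member held 118 of 431, with a doublet score of 0.54, and without it the ratio was 0.25 (0.22–0.28). Requiring 2 or more *Sox10* UMIs in every cell turned the E11.5 ratio to 1.19 (0.99–1.41) and brought the E12.5 ratio to 0.71 (0.64–0.80).

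The sensory neurogenic genes went the same way. All 6 that passed the minimum at E12.5 were lower (among them *Neurog1*, *Neurod1*, *Pou4f1*, *Tlx3* and *Isl1*, transcription factor genes of the sensory neuron lineage), as were all 5 at E11.5. *Isl1* had no UMI in the 18 members of E11.5, against 128 CPM in the comparators, at least 10.6-fold lower when the members are set at a limit of 3 UMIs over the group. At E12.5 it stood at 40.7 and 132 CPM (0.31, 0.21–0.43), with 82.9% of the members' UMIs in 1 cell. The list summed to 170 CPM in members and 530 in comparators at E12.5 (0.32, 0.27–0.38) and to 36.1 and 714 at E11.5 (0.051, 0.023–0.097). Without the E12.5 member of high doublet score named above, the E12.5 ratio was 0.13 (0.095–0.16), and with 2 or more *Sox10* UMIs required it was 0.73 (0.60–0.87). *Tfap2b*, a transcription factor gene of the neural crest, was the 1 glial and neural crest gene lower at both stages, at 72.2 against 162 CPM and 67.5 against 118.

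Both list differences of E12.5 were smaller within clusters. Each member was matched to Sox10-positive, Gata2-negative cells of its own cluster. On that matching the pan-neuronal ratio at E12.5 was 0.84 (0.76–0.93) and the sensory neurogenic ratio 1.05 (0.87–1.26). Both ratios include the member of doublet score 0.54, which held 118 of the members' 431 pan-neuronal UMIs. Against comparators of any cluster the sensory neurogenic ratio was 0.13 without it, and no within-cluster ratio without it is given here. *Isl1* stood at 1.15 (0.77–1.68) and *Tubb3* at 0.90 (0.73–1.10), while *Neurog1* remained lower at 0.29 (0.077–0.78). Of the members' UMIs, 29 of 35 for *Isl1* and 59 of 114 for *Tubb3* were in 1 cell each. At E11.5 the pan-neuronal ratio turned to 1.80 (1.51–2.15) within clusters, with 90 of the members' 172 UMIs in the 1 cell named above, and the sensory neurogenic ratio was 0.66 (0.29–1.33) on 9 UMIs. Of the 366 genes lower at E12.5, 324 were still below 1 within clusters, beside 48.0% of all genes tested. Of the 366, 182 were still past 1.5-fold (49.7%, against 3.16% of all genes tested). An interval below 1 was found for 111, a count with no share over all genes beside it. The 187 higher genes were all still above 1, beside 52.0% of all genes tested, with 84 past 1.5-fold (44.9%, against 2.11%). The members are the same cells in both matchings, so these counts are not independent of the calls. Among the lower genes with an interval below 1 were *Spsb4* (0.24, 0.087–0.54), *Hoxa7* (0.49, 0.30–0.75), *Stmn2* (0.36, 0.19–0.63), *Elavl4* (0.64, 0.45–0.87), *Bcl11a* (0.41, 0.18–0.80), *Gse1* (0.23, 0.073–0.55) and *Tfap2b* (0.66, 0.50–0.88).

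**Figure D3:**
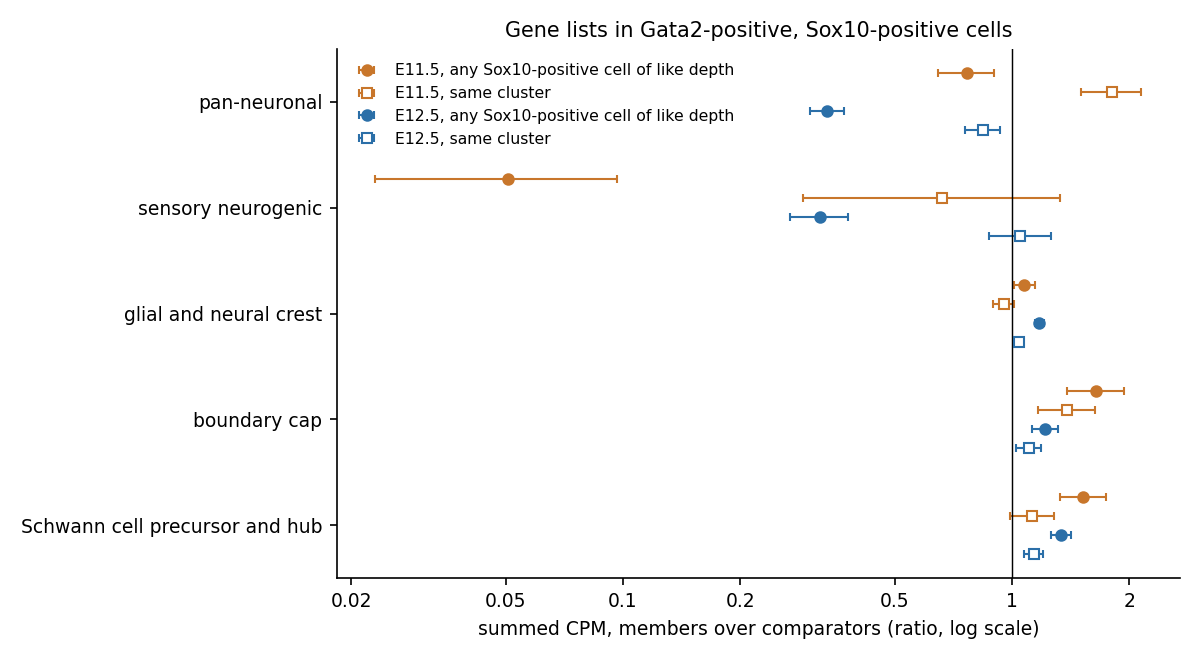
Ratio of summed CPM, members over comparators (log scale), for 5 gene lists, with comparators of like depth from any cluster (filled circles) or from the same cluster (open squares), at E11.5 (orange) and E12.5 (blue), and 95% counting intervals as lines. The sensory neurogenic ratio at E12.5 goes from 0.32 to 1.05 between the 2 sets of comparators. Both of these values include the E12.5 member of doublet score 0.54, without which the first was 0.13. The boundary cap ratio stays above 1 at both stages, and at E11.5 45 of the members' 185 UMIs of that list are of *Prss56*.

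The boundary cap and Schwann cell precursor lists had summed levels above those of the comparators, though most of their genes did not reach 1.5-fold. Of 8 boundary cap genes, 7 passed the minimum at E12.5 and 2 were 1.5-fold or more higher, and at E11.5 1 of 3 was, *Npr3*. The E12.5 genes were *Hey2*, a Notch target (159 against 101 CPM; 1.57, 1.29–1.91), and *Egr2* (39.6 against 23.9; 1.66, 1.09–2.46). *Npr3*, a natriuretic peptide clearance receptor gene, stood at 185 against 110 CPM at E11.5 (1.68, 1.18–2.36) and at 272 against 185 at E12.5 (1.47, 1.27–1.70). The list summed to 743 against 453 CPM at E11.5 (1.64, 1.38–1.94) and 973 against 799 at E12.5 (1.22, 1.13–1.31). Within clusters these ratios were 1.38 (1.17–1.63) and 1.10 (1.02–1.19), with *Hey2* at 1.33 (1.09–1.60) and *Egr2* at 1.28 (0.85–1.88) at E12.5. The median log2 ratio of the list was 0.38 over 3 genes and 0.47 over 7. Of the members' 185 UMIs of the list at E11.5, 45 were of *Prss56*, which is below the minimum there. Of these 45, 16 were in 1 cell. No list ratio without *Prss56* is given here.

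*Prss56* is below the minimum at E11.5, with 71 UMIs over both groups, and its ratio there moved with the comparators. At E11.5 10 of 18 members (55.6%) had a *Prss56* UMI against 15 of 90 comparators (16.7%), and it stood at 181 and 20.9 CPM (8.66, 5.23–14.6) on 45 and 26 UMIs. Without the 1 member that held 16 of those 45 UMIs the ratio was 5.97 (3.39–10.55). Against all 504 Sox10-positive, Gata2-negative cells it was 3.90 (2.78–5.35), within clusters 2.92 (1.98–4.28), and with 3 comparators per member 19.3 (8.64–50.7). At E12.5 it had a UMI in 41.6% of members and 27.1% of comparators but stood at 164 and 154 CPM (1.07, 0.89–1.28), and within clusters at 0.99 (0.82–1.19). Whether the stages differ could not be tested with 1 library each.

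Of 14 Schwann cell precursor and hub genes, 12 passed the minimum at E12.5, 4 were 1.5-fold or more higher and none lower, with a median log2 ratio of 0.41. *Dhh*, the desert hedgehog ligand gene of Schwann cell precursors, stood at 66.3 against 28.6 CPM (2.32, 1.66–3.20), in 29.2% of members and 16.8% of comparators, and within clusters at 1.77 (1.28–2.41). *Mbp*, myelin basic protein, was at 79.1 against 47.3 CPM (1.67, 1.25–2.21). *Mal*, a myelin-associated proteolipid gene, was at 1.57 (1.06–2.28), and *Gfra3*, a co-receptor gene for artemin, at 1.51 (1.16–1.95). Within clusters these stood at 1.43 (1.08–1.89), 1.30 (0.88–1.87) and 1.20 (0.92–1.54), under 1.5-fold. With 2 or more *Gata2* UMIs required, *Dhh* (0.93), *Mbp* (0.49), *Mal* (0.38) and *Gfra3* (0.81) were below 1, with intervals that held 1. The E12.5 list ratio was then 1.00 (0.86–1.16). At E11.5 *Dhh* was at 28.1 against 10.4 CPM on 7 and 13 UMIs (2.69, 0.91–7.26), and *Cnp*, a myelin enzyme gene, was the 1 higher gene of 3 measured (193 against 85.9 CPM; 2.24, 1.56–3.18). The list ratio was 1.52 (1.33–1.74) for the earlier stage and 1.34 (1.26–1.42) for the later, and within clusters 1.13 (0.99–1.29) and 1.14 (1.07–1.20). *Itga4*, an integrin gene of the hub state, and *Sox8*, a relative of *Sox10*, did not reach 1.5-fold at E12.5, with ratios of 1.10 (0.66–1.76) and 1.24 (0.71–2.07).

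Between the libraries, 22 of the genes higher at E12.5 passed the minimum at E11.5 too, and 11 of them were 1.5-fold or more higher there (50%, against 6.25% of all genes measured in both). Of 48 lower genes, 31 were lower at E11.5 as well (64.6%, against 5.88%). The 11 genes higher in both were *Abhd4*, *Akr1b8*, *Cmtm7*, *Col23a1*, *Glul*, *Hmga2*, *Hoxb2*, *Npy*, *Phlda1*, *Postn* and *Ptpn13*. When the member with the most UMIs of a gene was left out, all 22 ratios were still above 1, but 7 of the 11 genes fell under 1.5-fold in a library and 4 (*Col23a1*, *Hmga2*, *Npy* and *Postn*) did not. Without it *Abhd4* (1.37), *Cmtm7* (1.36) and *Hoxb2* (1.48) were under at E11.5 and *Akr1b8* (1.47), *Glul* (1.48), *Phlda1* (1.498) and *Ptpn13* (1.497) at E12.5. *Npy*, the neuropeptide Y gene, was the most abundant of them at E12.5, at 734 against 215 CPM at E11.5 (3.41, 2.81–4.14) and 890 against 513 at E12.5 (1.74, 1.60–1.89). One E11.5 member held 76 of its 183 UMIs, and without that cell the ratio was 2.11 (1.67–2.65). *Glul*, glutamine synthetase of glia, stood at 285 against 97.9 CPM (2.91, 2.14–3.93) and 330 against 213 (1.55, 1.35–1.78), and was found in 82.3% of members and 60.9% of comparators at E12.5. *Hoxb2*, an anterior Hox gene, was at 140 against 84.3 CPM (1.67, 1.10–2.46) and 128 against 82.0 (1.56, 1.25–1.94).

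Within clusters all 11 genes remained above 1 in both libraries, at ratios from 1.08 to 2.45 at E11.5 and from 1.33 to 1.65 at E12.5. The members are the same cells in both matchings, so these are not independent values. Of all genes tested, 51.0% (E11.5) and 52.0% (E12.5) were above 1 within clusters. *Npy* was at 2.45 (2.04–2.94), or 1.52 (1.21–1.89) without the cell named above, and 1.34 (1.23–1.45), *Glul* at 2.09 (1.56–2.77) and 1.39 (1.21–1.58), *Hoxb2* at 1.36 (0.91–1.98) and 1.65 (1.32–2.06), and *Phlda1* at 1.83 (1.38–2.40) and 1.55 (1.31–1.83). Only *Phlda1* stayed past 1.5-fold in both, and without the 1 member that held 22 of its 74 UMIs at E11.5 it stood at 1.37 (0.99–1.86) there. Of the 31 genes lower in both, 14 stayed below 1 in both libraries within clusters and 4 past 1.5-fold. Of all genes tested, 49.0% (E11.5) and 48.0% (E12.5) were below 1 there.

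**Figure D4:**
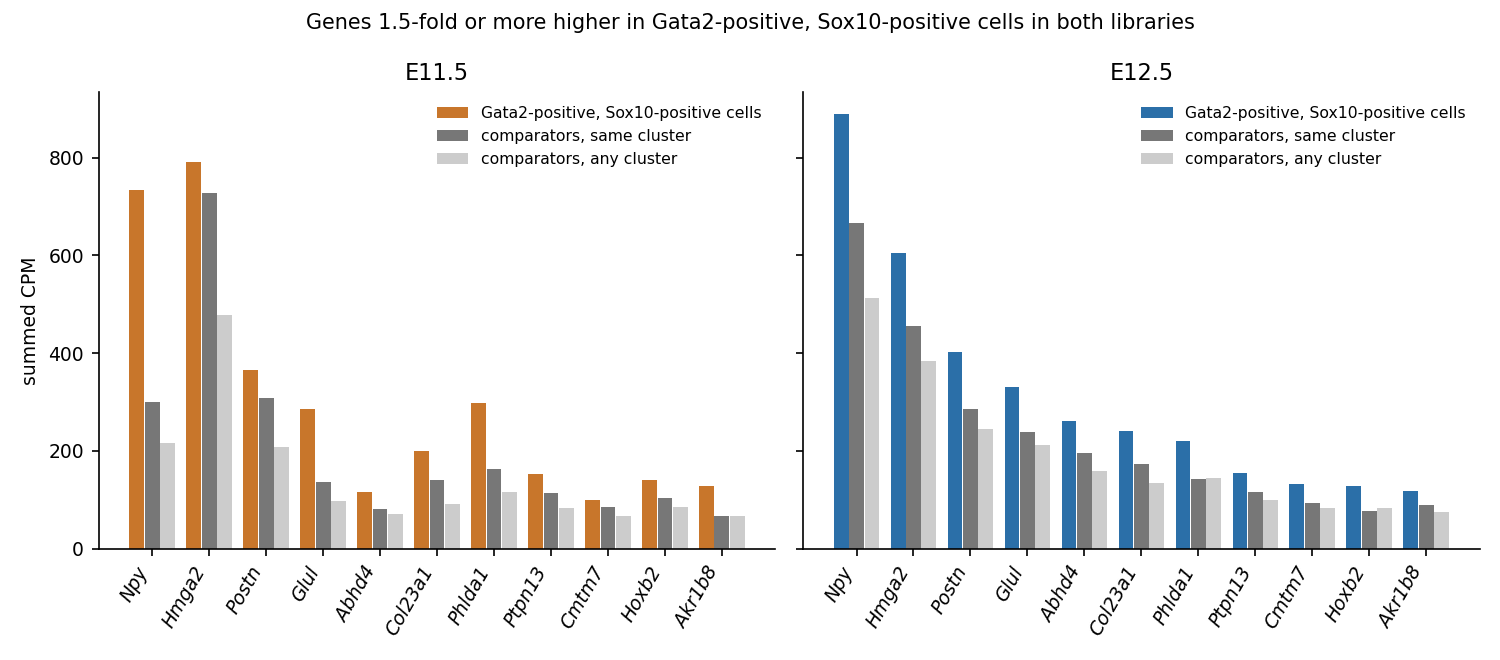
Summed CPM of the 11 genes 1.5-fold or more higher in both libraries, in the members (coloured bars), in comparators of the same cluster (dark grey) and in comparators of any cluster (light grey), at E11.5 (left) and E12.5 (right). In every pair the members' bar is the highest, by the least for *Hmga2* at E11.5 (1.08 against the same cluster).

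The genes with the largest ratios at E12.5, among those found in at least 20% of members, were low in both groups. *Srbd1*, an RNA-binding protein gene, led at 46.5 against 18.5 CPM (2.51, 1.67–3.72), but stood at 4.01 against 25.7 CPM at E11.5, on 1 and 32 UMIs. *Fhl1*, a LIM domain protein gene, followed at 39.6 against 16.9 (2.34, 1.51–3.57), then *Dhh* and *Nrcam*, a neuronal and glial adhesion molecule gene, at 38.4 against 17.3 (2.21, 1.42–3.38). *I730030J21Rik*, *Atf5*, *Hmces*, *Clcc1*, *Kank1*, *Rimklb*, *Rasl11b*, *Cnpy3*, *Ercc6l2*, *Dpagt1* and the homeobox gene *Dlx2* made up the 15, at ratios from 1.91 to 2.05. At E11.5 none of the 15 reached 100 UMIs. The 10 genes with the smallest ratios were *Stmn2*, *Thsd7b*, *Spsb4*, *Gse1*, *Bcl11a*, *Elavl3*, *Ppp1r14a*, *Elavl4*, *Tubb3* and *Mfap4*, and the lowest level of these in members was *Gse1* at 5.82 against 41.5 CPM. *Thsd7b* stood at 23.3 against 182 CPM, with 90% of the members' UMIs in 1 cell.

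The Notch and Wnt lists each had 3 genes past 1.5-fold higher in the members at E12.5, of 14 and 13 measured, where 2.77% of all genes were higher and 5.43% lower. In the Notch list, *Hey2*, *Rfng* (a fringe glycosyltransferase; 1.78, 1.20–2.58) and the effector *Hes1* (87.3 against 50.6 CPM; 1.72, 1.31–2.25) were higher, and *Hes6*, a neurogenic member of the family (50.04 against 176 CPM), and *Mfng* were lower. Within clusters *Hes1* was at 1.83 (1.38–2.40) and *Hes6* at 0.90 (0.64–1.25). At E11.5 the Notch list was lower, at 618 against 987 CPM (0.63, 0.53–0.74), with *Hes6* and the receptor gene *Notch1* lower of 5 measured and none higher, and within clusters it was at 0.90 (0.76–1.07). At E12.5 the list was at 1.04 (0.97–1.12), and within clusters at 1.19 (1.11–1.28). Among 13 Wnt pathway genes the feedback genes *Axin2* (1.62, 1.01–2.52) and *Nkd1* (1.57, 1.13–2.14) and the secreted inhibitor gene *Sfrp5* (157 against 100 CPM; 1.57, 1.28–1.91) were higher and the co-receptor gene *Lrp6* lower (0.57, 0.35–0.87). Within clusters *Axin2* (1.35), *Nkd1* (1.40) and *Sfrp5* (1.38) were under 1.5-fold. *Lef1* was the most abundant gene of that list, and at E11.5 the only one past 1.5-fold of 5 measured (1.70, 1.27–2.25). Of 14 BMP and TGF-beta genes only the ligand gene *Tgfb2* passed 1.5-fold, at 10.5 against 24.4 CPM, and at E11.5 only *Id2* of 3 (1.55, 1.15–2.07). Among 15 Hox genes *Hoxb2* was higher and *Hoxa7* (0.43, 0.27–0.66) and *Hoxa2* lower, and among 6 at E11.5 *Hoxb2* and *Hoxb8* were higher and *Hoxb6* lower. None of the 30 measured cell cycle genes was past 1.5-fold at E12.5, with list ratios of 1.04 (0.99–1.09) for G2 and M genes and 1.11 (1.05–1.18) for S genes, against 0.93 (0.86–1.01) and 0.87 (0.78–0.97) at E11.5. At E11.5 4 of 27 were lower, among them *Mki67* at 48.2 against 81.9 CPM.

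Several defining genes of the sympathetic program were at or near 0 in the members. *Phox2a* and *Hand2*, transcription factor genes of autonomic neurons, and *Dbh*, dopamine beta-hydroxylase, had no UMI in any member at either stage, which allows a UMI in up to 16.7% of the E11.5 members and 2.65% of the E12.5 members and sets no limit on cells that express these genes at a low level. The members of E12.5 held 2 *Gata3* UMIs and those of E11.5 none, and *Th*, tyrosine hydroxylase, had 1 UMI at E12.5 and none at E11.5. The comparators were as low, with 1 *Gata3* UMI at E11.5 and none at E12.5, so these counts show no difference. The 14 genes of the autonomic list summed to 72.2 CPM in E11.5 members and 100.1 in E12.5 members, beside 116 and 106 in the comparators. *Maoa*, monoamine oxidase A, was the only one of them measured at E12.5, at 67.5 against 62.6 CPM, and *Ddc*, dopa decarboxylase, stood at 17.5 against 12.4 CPM. Of the GATA factors and their partners, *Lmo4*, a LIM-only cofactor gene, stood at 417 against 275 CPM at E11.5 (1.52, 1.21–1.89) and 186 against 148 at E12.5 (1.26, 1.05–1.502), which within clusters became 1.17 (0.93–1.45) and 1.11 (0.93–1.32). The corepressor gene *Runx1t1* was lower at 0.59 (0.34–0.96) and 0.53 (0.40–0.68).

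Markers of blood, endothelial, spinal cord and epithelial cells left few UMIs in the members, while mesenchymal and meningeal genes were present in both groups. The 12 endothelial genes summed to 24.1 CPM in E11.5 members and 32.6 in E12.5 members, with *Egfl7* the most abundant. The comparators stood at 18.5 and 33.7 CPM. The 11 erythroid genes summed to 16.1 and 16.3 CPM, with *Hbb-y* the most abundant, while Sox10-negative cells of the same libraries held 4410 and 466. The 12 myeloid and mast cell genes summed to 0 and 5.82 CPM, beside 0.803 and 58.8 in the comparators. The 17 genes of spinal cord progenitors and interneurons summed to 0 and 3.49 CPM. Pericyte genes stood at 32.1 and 36.1 CPM, and epithelial genes at 0 and 4.65. Meningeal genes, with *Crabp2* the most abundant, stood at 181 and 260 CPM, lower than in the comparators, and *Igfbp2* was past 1.5-fold at E12.5 (0.58, 0.41–0.79). Mesenchymal genes stood at 241 CPM at E11.5 (1.53, 1.13–2.05), where *Col1a2* was past 1.5-fold, and at 492 at E12.5 (1.10, 0.99–1.23), where *Lum* was lower. Within clusters the E11.5 list was at 0.88 (0.66–1.16) and *Col1a2* at 0.79 (0.54–1.12), while the E12.5 list was at 1.24 (1.11–1.38), with *Col1a1* at 2.34 (1.53–3.53) and *Lum* at 1.66 (0.72–3.50). Among 9 melanoblast genes none reached 100 UMIs. Of 16 immediate early and heat shock genes *Btg2* was lower at E12.5 and *Hsph1* at E11.5.

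Levels in the members differed by cluster. The clusters were made from the same expression values, so these levels are a description and restate in part how the clusters were defined. At E12.5 *Fabp7* ran from 1598 CPM in the 26 members of cluster 4 to 7236 in the 32 of cluster 6. *Egr2* was at 112 CPM in the 18 members of cluster 15 and had no UMI in the 11 of cluster 5, where up to 58.6 CPM is within the interval. *Gfra3* was at 334 CPM in cluster 5 and 7.37 in the 16 members of cluster 8, and *Glul* at 656 in cluster 8 and 172 in cluster 6. *Prss56* was at 324 CPM in the members of cluster 4 and 397 in their Gata2-negative neighbours, at 112 and 291 in cluster 15, and at 106 and 20.5 in cluster 6, so the members stood below the other cells of their cluster in some and above them in others. In cluster 8 of E11.5 the 10 members held *Prss56* at 110 CPM and the 122 other Sox10-positive cells at 45.3. *Top2a*, a topoisomerase gene of dividing cells, stood at 479 CPM in members of cluster 15 and 111 in those of cluster 5.

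The 21 E12.5 members with 2 or more *Gata2* UMIs were compared with the 92 that held 1. This split uses the *Gata2* UMIs that chose the members and is a description. *Prss56* stood at 171 (112–251) and 163 (134–195) CPM and *Hey2* at 211 (144–298) and 148 (121–180). *Dhh*, with 5 and 52 UMIs, stood at 33.0 (10.7–76.9) and 73.5 (54.9–96.4) CPM. *Mbp*, with 5 and 63, stood at 33.0 (10.7–76.9) and 89.0 (68.4–114), and *Gfra3*, with 7 and 72, at 46.1 (18.6–95.1) and 102 (79.6–128). The intervals overlapped for all 5 genes. Set against comparators of their own depth, these 21 members had *Dhh*, *Mbp*, *Mal* and *Gfra3* at ratios below 1, with intervals that all held 1, and the list ratio of Schwann cell precursor genes was 1.00 (0.86–1.16).

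The 18 Gata2-positive cells of E12.5 with no *Sox10* UMI, which stand just outside the rule, included 17 with *Fabp7* and 15 with *Ednrb*. Of these 18 cells, 14 fell in the clusters 4, 5, 6, 8 and 15 that held most members. They carried *Tubb3* at 1181 CPM and *Isl1* at 497, with *Isl1* found in 4 cells, and no UMI of *Gata3*, *Hand2*, *Phox2a*, *Th* or *Dbh*.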

How the data were processed

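The deposited files held raw counts (UMIs per cell barcode over 33207 genes), which the authors made with Cell Ranger (7.0 in the submitters' processing notes, 7.0.1 in the matrix header) on mm39, from 10x 3' libraries. Whether intronic reads were counted is not given in the sources used here. The files still held cells that the study filtered out. The methods removed cells with a Scrublet score of 0.2 or more, and here they were kept, with their removal as an alternative. The *Prss56-Cre* library was not analysed here.

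Each library was clustered alone (scanpy 1.11.5, 3000 variable genes, 30 principal components, 15 neighbours, Leiden resolution 1). *Gata2*, *Sox10* and the genes of the sensory neurogenic and autonomic lists were left out of the clustering. Comparators were the 5 cells of nearest log total for each member, taken without replacement. Ratios have exact conditional binomial intervals, shares Clopper-Pearson intervals and sums exact Poisson intervals at 95% (scipy 1.17.1). Only the ratio intervals were run on simulated data. Those were Poisson sums with no variation between cells, so the run says nothing about genes with most UMIs in few cells. For a share of 0 the limit is that of 3 counts. A gene counted as higher or lower past 1.5-fold with at least 100 UMIs over both groups. TMM factors came from edgeR 4.0.16 and thinning from 1 random draw. PCR copies and cells of 1 embryo are not independent, so intervals cover counting error only. Gene positions are from GENCODE M39 on GRCm39.

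The genes named were, at E12.5, the 15 with the largest ratio and a UMI in at least 20% of members, the 10 with the smallest and a UMI in at least 20% of comparators, genes of 24 lists past 1.5-fold, the most abundant gene of each list, and *Gata3*, *Phox2a*, *Hand2*, *Th*, *Dbh*, *Prss56*, *Egr2*, *Sox8* and *Itga4*. Other genes were chosen after their values were seen. The members and the lists were chosen with earlier results of these data known, and some genes are not reported here.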

Additional observations from a re-analysis of the deposited data

Results flagged for a closer look

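For 4 genes the members stood above the comparators in one library and below them in the other, with counting intervals clear of 1 in both. The difference between the stages was not tested, since each has 1 library. The axonal genes *Nefl* (neurofilament light chain), *Stmn2* and *Stmn3* had ratios of 4.29, 2.31 and 12.5 at E11.5 and of 0.16, 0.12 and 0.31 at E12.5. At E11.5 the members' 12 UMIs of *Nefl* and 12 of *Stmn2* were all in 1 cell, and the 15 of *Stmn3* were in 2 cells. *Srbd1*, the gene with the largest ratio at E12.5 (2.51), stood at 0.16 at E11.5, where the members held 1 UMI of it.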

How the results depend on the processing

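No paired analysis was possible because each stage has 1 library. Within clusters 78 genes were higher at E11.5 and 193 lower at E12.5. There the glial and neural crest list was at 0.95 and 1.04. Direction turned for *Neurod1* (1.25), *Ppp1r14a* (1.14) and *Tubb3* (2.02) at E11.5. At E12.5 it turned for *Dcx* (1.87), *Igfbp2* (1.01), *Isl1* (1.15), *Lum* (1.66), *Mfng* (1.14), *Neurod1* (1.39), *Pou4f1* (1.19), *Stmn3* (1.01) and *Tlx3* (1.40). Of the members' E12.5 UMIs, 82.9% for *Isl1*, 79.3% for *Pou4f1*, 63.6% for *Neurod1* and 60.9% for *Tlx3* were in 1 cell each. The list ratios were 1.80, 0.66 and 1.13 at E11.5 and 0.84, 1.05, 1.10 and 1.14 at E12.5, in the order pan-neuronal, sensory neurogenic, boundary cap (E12.5) and Schwann cell precursor.

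Requiring 2 or more *Gata2* UMIs left 3 and 21 members, thinned shares of 0.192% and 0.133%, and 21 higher and 31 lower genes at E11.5 and 63 and 92 at E12.5. Pan-neuronal genes were then at 0.45 in the E11.5 library, and in that of E12.5 the sensory neurogenic ratio was 0.15, boundary cap 1.38, Schwann cell precursor 1.00 and glial 1.31. *Hoxb2* at E11.5 (0.75) and *Axin2* (0.77), *Dhh* (0.93), *Gfra3* (0.81), *Mal* (0.38), *Mbp* (0.49) and *Tgfb2* (1.88) at E12.5 turned. Requiring 2 or more *Sox10* UMIs gave pan-neuronal ratios of 1.19 and 0.71, glial 1.00 and 1.04, and at E12.5 sensory neurogenic 0.73, boundary cap 1.12, Schwann cell precursor 1.22, *Dcx* 1.24 and 235 lower genes.

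With 3 comparators per member 81 genes were lower at E11.5, and at E12.5 114 were higher and 188 lower, with pan-neuronal 0.40 and sensory neurogenic 0.38. With every Gata2-negative cell, 783 were higher and 1025 lower at E11.5 and 396 and 735 at E12.5, since more genes reach 100 UMIs. A minimum of 50 UMIs gave 467, 453, 454 and 750 and one of 200 gave 37, 38, 67 and 142. TMM gave 77 and 231 at E11.5, with glial ratios of 0.98 and 1.12. Thinning each cell, with the genes tested before thinning kept and thus few UMIs per gene, gave 443 and 562 at the earlier and 716 and 1004 at the later stage, with ratios of 0.61 (pan-neuronal), 2.36 (boundary cap) and 1.20 (glial) at E11.5 and 0.26, 0.15 (sensory neurogenic) and 1.22 (glial) at E12.5. The mean of each cell's CPM gave sensory neurogenic ratios of 0.10 and 0.19 and a glial ratio of 1.22 at E12.5. Without cells of doublet score 0.2 or more the E12.5 ratios were 0.25 (pan-neuronal) and 0.13 (sensory neurogenic). Without the member with the most pan-neuronal UMIs, a choice made after seeing the data, as was leaving out 1 *Prss56* cell and the top cell of each gene higher in both libraries, they were 0.25 and 0.13, and pan-neuronal was 0.40 at E11.5.

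The share with *Gata2* was 3.45% and 7.30% with no thinning and 0% and 1.36% after thinning to 1000 UMIs. The cause of the changes under these alternatives was not tested. Of 766 values of single genes under these alternatives, 609 stayed within the counting interval, 137 moved and 20 turned. With 18 members, E11.5 ratios of genes under about 100 UMIs have intervals spanning several-fold.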
